A study of Mus musculus with 7 samples.

Results

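The genes described here encode the coats and cargo receptors that carry proteins between the endoplasmic reticulum (ER) and the Golgi apparatus. They are 35 genes chosen by name and function, namely the COPII coat and its assembly factors, the COPI coatomer, the p24 family, the KDEL receptors and further cargo receptors. All 35 were found by symbol among the 24346 genes of the deposited table. RNA was sequenced from the cerebral cortex of 7 male mice at postnatal day 100, each animal giving 1 library, with 4 animals hemizygous for a deletion of exons 5 to 7 of *Slc6a8* (CrT-/y) and 3 wild-type littermates (CrT+/y). All mice were on a C57BL/6J background, and the deletion is present in every cell of the body, so it was not confined to the cortex or to a cell type. *Slc6a8* encodes the transporter that brings creatine into cells. The question was which cortical transcripts differ when this transporter is missing.

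Proteins made in the ER leave it in vesicles shaped by the COPII coat, which assembles when the small GTPase SAR1 is loaded with GTP, then recruits the SEC23/SEC24 inner layer, which binds cargo, and the SEC13/SEC31 outer cage. COPI, a complex of several coatomer subunits recruited by ARF GTPases, returns escaped ER residents and cargo receptors from the Golgi. KDEL receptors bind soluble ER chaperones that end in a KDEL-like tail and load them into COPI vesicles, while p24 proteins and lectins such as LMAN1 cycle between both compartments with their cargo.

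The table gives FPKM, fragments scaled to transcript length and to the mapped reads of the library, so that levels can be compared between genes, while the depth of a library cannot be read from it. Differences are given as log2 fold changes of CrT-/y over CrT+/y on the scale of log2(FPKM + 0.1), from limma fitted to the 12988 genes whose mean reached 1 FPKM, and a gene is called changed at an adjusted p-value under 0.1. *Slc6a8* itself was at 12.4, 14.9, 14.7 and 15.7 FPKM in CrT-/y animals 0 to 3, against 32.3, 29.6 and 28.05 FPKM in CrT+/y animals 1 to 3. The groups did not overlap, and on the log2 scale the gene fell by 1.05 (standard error 0.087, adjusted p = 0.0024 in limma). Reads from exons that the deletion leaves are part of these values.

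Some libraries stood apart. The summed FPKM of 5 choroid plexus and ependyma markers (*Ttr*, *Kl*, *Folr1*, *Clic6*, *Foxj1*) was 397.6 in CrT+/y animal 2 and between 5.23 and 53.2 in the other 6 animals. Of the sum in CrT+/y animal 2, 379.4 FPKM was *Ttr*. *Kl*, *Folr1* and *Clic6* also had their highest value there, while *Foxj1* was at 2.44 FPKM, below the 2.60 FPKM of CrT-/y animal 3. Striatal markers were between 53.6 and 253.6 in sum, with the highest value in CrT-/y animal 1. The 4 endothelial markers summed to 59.4 to 73.93 FPKM in CrT-/y and 73.96 to 83.4 FPKM in CrT+/y animals, so that the groups nearly touched. Of these markers 2 were called lower (*Pecam1* and *Flt1*), while *Cldn5* and *Slco1c1* overlapped between the groups. The 3 inhibitory neuron markers summed to 229.8 to 244.0 FPKM in CrT-/y against 189.1 to 221.7 FPKM in CrT+/y animals. Only 1 of them was called higher (*Gad1*), and *Gad2* and *Slc32a1* overlapped between the groups. Excitatory neuron markers lay at 1506 to 1638 against 1528 to 1864 FPKM, with 2 of 5 called lower, and no gene of the 10 marker lists was at 0 in any animal, so the cortical markers were present throughout. The 4 olfactory bulb markers summed to 4.28 to 12.5 FPKM in CrT-/y and 1.84 to 4.46 FPKM in CrT+/y animals. Among them *Cdhr1* was called higher (log2 fold change 1.51, standard error 0.423, adjusted p = 0.0789), with no overlap and with its highest value, 9.14 FPKM, in CrT-/y animal 1. CrT+/y animal 1 lay outside the range of the other 6 animals in 8 of the 10 lists, more than any other animal. The part of these markers in the results below was not tested. The sums of the astrocyte, oligodendrocyte, microglia and meningeal lists overlapped between the groups, and none of their genes was called. Leaving out CrT+/y animal 3 was the only omission of an animal that raised the number of calls over all genes, and its marker sums lay within the range of the other animals in all 10 lists. In bulk tissue, fewer cells of a type and less RNA per cell cannot be told apart.

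Of the 35 genes, 34 passed the minimum of 1 FPKM and were tested. *Kdelr3*, the third KDEL receptor gene, stayed below it at 0.146 to 0.427 FPKM. With limma, 3 of the 34 were called lower in CrT-/y animals (*Tmed2*, *Sec31a* and *Lman2*), which is 8.82%, beside 7.25% of all tested genes. A single gene was called higher (*Sec24d*), 2.94% of the 34 beside 2.90% of all tested genes. Both shares were close to those over all genes, so the coat and receptor genes as a group were not set apart by their calls. Their median log2 fold change was -0.04, beside a median of -0.03 over all tested genes, with 22 of 34 below 0, and the 34 values lay between -0.23 and 0.38. The 4 CrT-/y animals all lay below the 3 CrT+/y animals in 7 of the 34 genes (20.6%, beside 15.0% of all tested genes) and all above them in 3 (8.82%, beside 6.57%). In the plot of fold changes by role, each called gene stands beside uncalled genes of its own role. The COPII assembly, COPI coatomer and KDEL receptor genes hold no call.

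**Figure D1:**
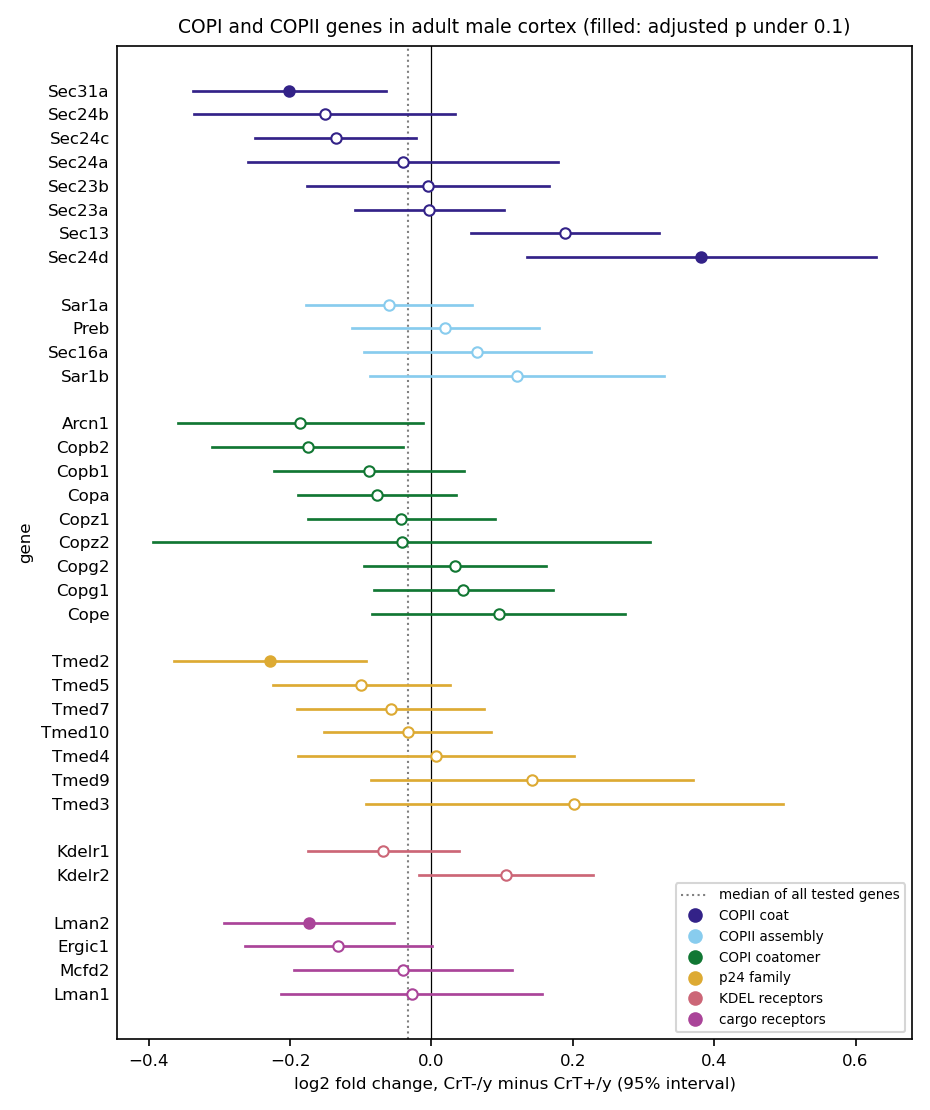
Log2 fold change (CrT-/y minus CrT+/y, horizontal axis) of the 34 tested genes with 95% intervals, 1 row per gene, coloured by role, with filled points for an adjusted p-value under 0.1. Most values lie near the dotted median of all tested genes (-0.03), and the called genes are *Sec31a*, *Tmed2* and *Lman2* on the left and *Sec24d* on the right.

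These counts rested on which animals and which scaling entered the fit. Without CrT+/y animal 3, 7 of the 34 genes were called lower (20.6%, beside 18.4% of all tested genes) and 6 higher (17.6%, beside 10.3%). Without any other single animal none was called lower, and none was called higher except *Sec24d* without CrT+/y animal 2. After quantile normalization, which makes the value distributions of the animals equal, 0 of the 34 were called lower and 2 higher (*Sec24d* and *Sec13*), and the calls over all genes then split into 555 lower and 528 higher in place of 941 and 377.

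Among the 8 genes of the COPII coat, 1 was called lower, 1 was called higher and 6 were not called. *Sec31a* (chr5:100361649-100416234 in GRCm38, minus strand), which encodes the outer cage subunit SEC31A, was at 29.6, 31.0, 29.3 and 28.4 FPKM in CrT-/y animals 0 to 3, against 35.7, 34.9 and 31.5 FPKM in CrT+/y animals 1 to 3. Every CrT-/y value lay below every CrT+/y value, and the gap was narrow beside CrT+/y animal 3. Its mean was 29.6 ± 1.07 FPKM (SD, n = 4) against 34.0 ± 2.19 FPKM (SD, n = 3), a log2 fold change of -0.20 (standard error 0.061; adjusted p = 0.0930 with limma), and the call was kept in 4 of 13 other settings.

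*Sec24d* (chr3:123267455-123365641 in GRCm38, plus strand), 1 of 4 genes for the inner layer subunit SEC24 that recognises cargo, was the only called gene of the group to rise. It was at 4.17, 4.35, 4.74 and 4.40 FPKM in CrT-/y animals 0 to 3, against 2.84, 3.80 and 3.51 FPKM in CrT+/y animals 1 to 3. All CrT-/y animals lay above all CrT+/y animals. The means were 4.41 ± 0.239 FPKM (SD, n = 4) and 3.39 ± 0.492 FPKM (SD, n = 3), a log2 fold change of 0.38 (standard error 0.110; adjusted p = 0.0832 with limma), or a mean FPKM 30.4% higher. The call was kept in 8 of the 12 other settings that could test the gene.

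*Sec13*, whose product pairs with SEC31 in the same outer cage, lay just outside the threshold and is described because its values went the other way from those of *Sec31a*, a choice made after seeing them. It was at 22.5, 23.7, 23.1 and 23.1 FPKM in CrT-/y animals 0 to 3, against 18.9, 20.5 and 21.4 FPKM in CrT+/y animals 1 to 3. The groups did not overlap, with the CrT-/y animals above, and the log2 fold change came to 0.19 (standard error 0.059; limma adjusted p = 0.1001). It was called higher in 6 of 13 other settings. The log2 ratio of *Sec13* to *Sec31a* was -0.40, -0.39, -0.34 and -0.30 in CrT-/y animals 0 to 3 and -0.92, -0.76 and -0.56 in CrT+/y animals 1 to 3. That ratio, given without a test because the pair was picked from its values, was higher in every CrT-/y animal than in any CrT+/y animal. SEC13 also belongs to the nuclear pore, outside the coat.

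The remaining COPII coat genes were not called. *Sec23a* and *Sec23b*, which encode the inner layer GTPase-activating subunit, had means of 41.6 ± 0.613 and 14.8 ± 0.768 FPKM (SD, n = 4) when the transporter was deleted, and of 41.7 ± 0.924 and 14.9 ± 1.40 FPKM (SD, n = 3) in wild-type littermates. Their 95% intervals of the log2 fold change ran from -0.11 to 0.10 and from -0.18 to 0.17. *Sec24a*, *Sec24b* and *Sec24c*, the other SEC24 genes, had log2 fold changes of -0.04, -0.15 and -0.14. In *Sec24c* the 4 CrT-/y animals lay at 23.0 to 24.7 FPKM, all below the 26.0 to 26.5 FPKM of the CrT+/y animals, with adjusted p = 0.145. *Sec24b* was called lower without CrT+/y animal 3 (log2 fold change -0.25; adjusted p = 0.0178), an animal in which it was at 17.0 FPKM beside 21.7 and 20.5 FPKM in CrT+/y animals 1 and 2.

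None of the 4 COPII assembly genes was called. These are *Sar1a* and *Sar1b* for the GTPase that starts the coat, *Preb* for its exchange factor SEC12, and *Sec16a* for the scaffold of ER exit sites. The smallest p belonged to *Sar1b*, at 36.5, 35.6, 36.7 and 37.1 FPKM in CrT-/y animals 0 to 3, against 32.0, 29.5 and 39.9 FPKM in CrT+/y animals 1 to 3. The groups overlapped because CrT+/y animal 3 held the highest value of all. The log2 fold change came to 0.12 (standard error 0.093; limma adjusted p = 0.445), and 0.25 (adjusted p = 0.0175) without that animal. *Sar1b* and *Sec24a* lie head to head on chromosome 11 with 52 bases between them, and their log2 fold changes were 0.12 and -0.04. The other 3 genes had values between -0.06 and 0.06.

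**Figure D2:**
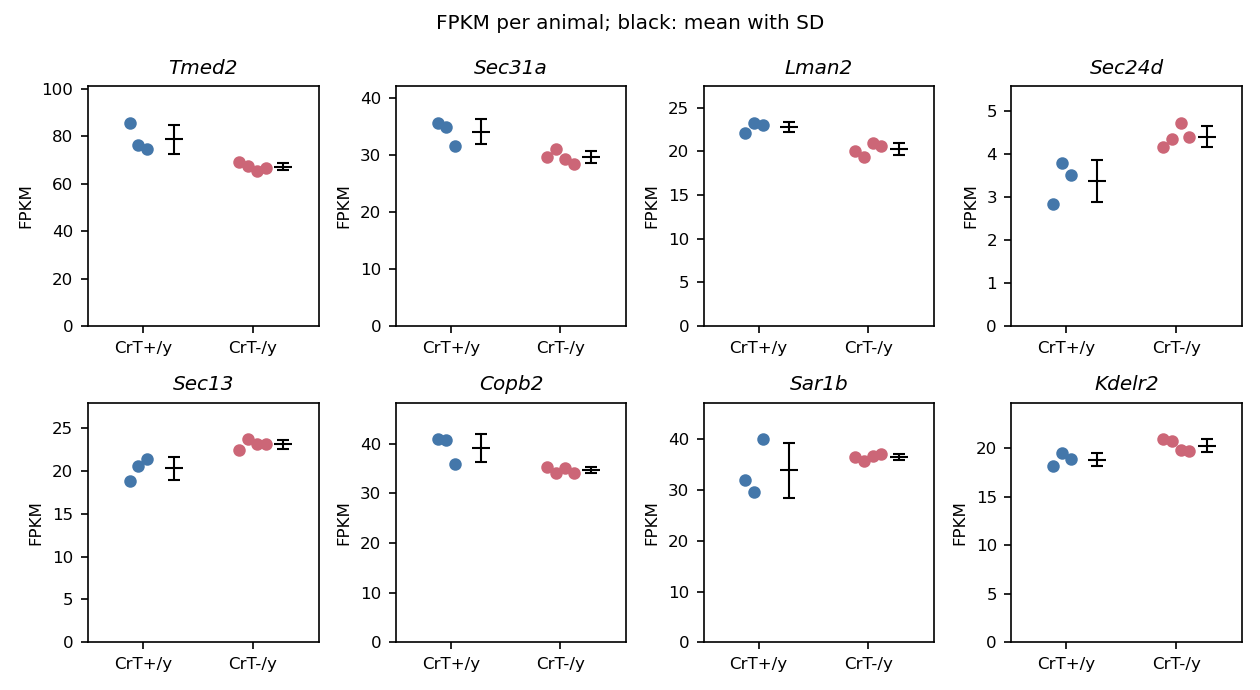
FPKM (vertical axis, from 0) of 8 genes in the 3 CrT+/y (blue, animals 1 to 3 from left to right) and 4 CrT-/y animals (red, animals 0 to 3), with the mean and SD in black. *Tmed2*, *Sec31a*, *Lman2* and *Copb2* lie lower and *Sec24d*, *Sec13* and *Kdelr2* higher in all CrT-/y animals, while in *Sar1b* CrT+/y animal 3 (39.9 FPKM) lies above all others.

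No gene of the COPI coatomer was called. The 9 genes are *Copa* (alpha), *Copb1* (beta), *Copb2* (beta prime), *Copg1* and *Copg2* (gamma), *Arcn1* (delta), *Cope* (epsilon) and *Copz1* and *Copz2* (zeta). Their levels over all animals ran from 3.17 FPKM for *Copz2* to 92.2 FPKM for *Copg1*, the highest mean of the 35 genes. *Copb2* had the smallest p and was at 35.2, 34.1, 35.1 and 34.1 FPKM in CrT-/y animals 0 to 3, against 40.9, 40.7 and 35.9 FPKM in CrT+/y animals 1 to 3. The CrT-/y animals all lay below the CrT+/y animals. Its log2 fold change came to -0.18 (standard error 0.060; limma adjusted p = 0.120).

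*Arcn1* was at 38.8 to 41.1 FPKM in CrT-/y animals, against 50.8, 45.9 and 40.2 FPKM in CrT+/y animals 1 to 3, a log2 fold change of -0.19 (standard error 0.077; adjusted p = 0.178 with limma). CrT+/y animal 3 lay inside the CrT-/y range. Without that animal *Copb2* (adjusted p = 0.0130) and *Arcn1* (adjusted p = 0.0177) were called lower and *Cope* higher (adjusted p = 0.0620), so that the called subunits went in both directions there. The other 7 subunits had log2 fold changes between -0.09 and 0.10 in the fit with all animals, and 6 of the 9 values were below 0. *Copg2* shares 17.8% of its annotated exon bases with *Mest* on the opposite strand, as *Preb* above shares 21.8% with *Abhd1*, and whether the counting used strand is not given in the sources used here.

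Of the 7 p24 genes, only *Tmed2* was called. The p24 proteins are short transmembrane proteins that form mixed complexes and help to sort cargo such as GPI-anchored proteins. *Tmed2* (chr5:124540695-124550506 in GRCm38, plus strand) was at 69.2, 67.5, 65.4 and 66.8 FPKM in CrT-/y animals 0 to 3, against 85.8, 76.2 and 74.6 FPKM in CrT+/y animals 1 to 3. The groups did not overlap. The means were 67.2 ± 1.58 FPKM (SD, n = 4) and 78.9 ± 6.09 FPKM (SD, n = 3), a log2 fold change of -0.23 (standard error 0.060; adjusted p = 0.0682 with limma). The call was kept in 6 of 13 other settings. *Tmed10*, which encodes another subunit of the same mixed complexes, was at 53.0 to 57.9 against 55.1 to 58.3 FPKM, and its 95% interval of the log2 fold change ran from -0.15 to 0.08.

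*Tmed3* and *Tmed9* showed how CrT+/y animal 3 bore on this family. *Tmed9* was at 61.5 to 63.2 FPKM in the 4 CrT-/y animals, at 52.5 and 49.5 FPKM in CrT+/y animals 1 and 2, and at 69.0 FPKM in CrT+/y animal 3. *Tmed3* was at 14.0 to 16.90 FPKM in CrT-/y animals, at 11.5 and 11.8 FPKM in CrT+/y animals 1 and 2, and at 16.95 FPKM in CrT+/y animal 3. Neither was called with all animals (log2 fold changes 0.14 and 0.20; adjusted p = 0.408 and 0.362). Both were called higher without that animal, at 0.29 and 0.38 (adjusted p = 0.00804 and 0.0172). *Tmed4*, *Tmed5* and *Tmed7* had log2 fold changes of 0.01, -0.10 and -0.06 and were not called either way. *Tmed7* shares 9.48% of its annotated exon bases with *Ticam2* on the same strand, so its value is less certain.

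Across the 34 genes, CrT+/y animals 1 and 2 both lay on the same side of all 4 CrT-/y animals in 20, and in 10 of these CrT+/y animal 3 did not lie on that side, which is 50.0% beside 50.7% over all tested genes. The map of deviations by animal shows this as a column of CrT+/y animal 3 that departs from the other CrT+/y columns in *Sec24a*, *Sec24b*, *Sar1b*, *Cope*, *Tmed3*, *Tmed9* and *Lman1*. CrT+/y animal 1 held the highest value of the 7 animals in 13 of the 34 genes, beside 28.2% of all tested genes, and the lowest in 9, beside 15.9%. CrT+/y animal 3 held the highest value in 10, beside 17.5% of all tested genes, and each CrT-/y animal in 2, beside 7.50% to 10.5%.

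**Figure D3:**
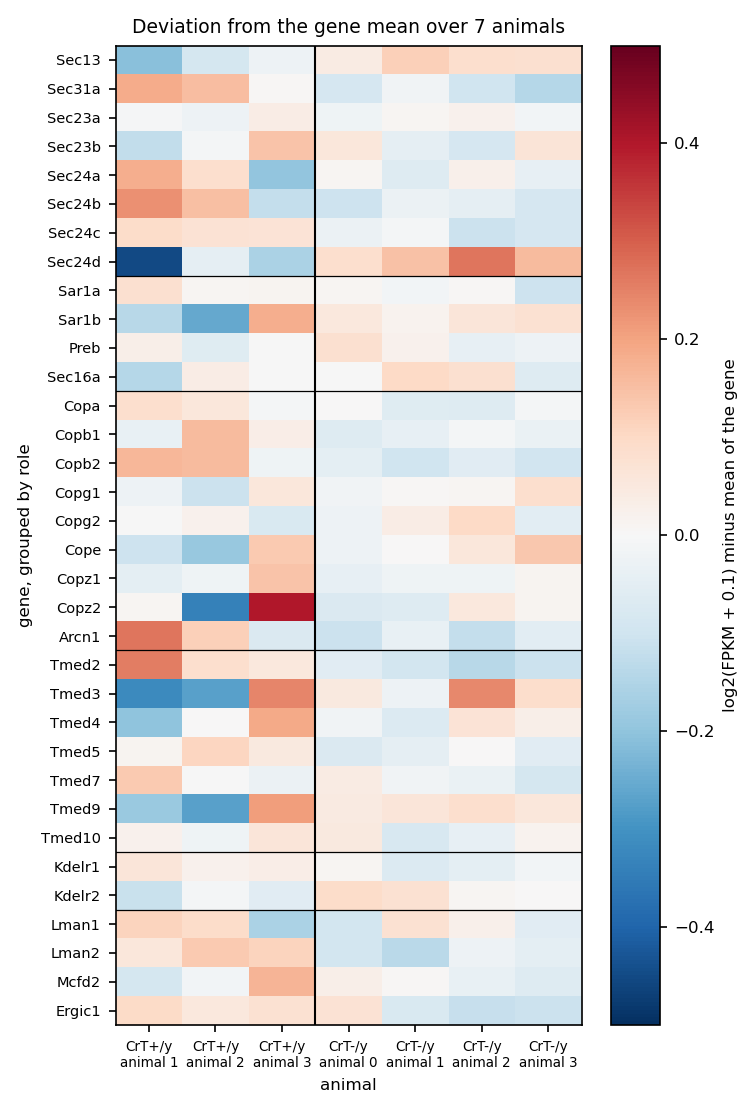
Deviation of log2(FPKM + 0.1) from the mean of the gene over the 7 animals, for the 34 tested genes (rows, by role) in each animal (columns, CrT+/y left of the line). *Sec31a*, *Copb2* and *Tmed2* are higher and *Sec13* and *Sec24d* lower on the left, and CrT+/y animal 3 differs from CrT+/y animals 1 and 2 in genes such as *Sar1b*, *Tmed3* and *Tmed9*.

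Neither tested KDEL receptor gene was called. *Kdelr2* was at 20.9, 20.7, 19.8 and 19.7 FPKM in CrT-/y animals 0 to 3, against 18.2, 19.5 and 18.9 FPKM in CrT+/y animals 1 to 3. The groups stood apart by a small margin, with the CrT-/y animals above, at a log2 fold change of 0.11 (standard error 0.055; adjusted p = 0.257 with limma). *Kdelr1*, the gene of the family with the highest level, was at 43.2 to 45.7 FPKM in CrT-/y and 46.0 to 47.3 FPKM in CrT+/y animals, and its log2 fold change was -0.07 (95% interval -0.18 to 0.04). The summed FPKM of the 3 receptor genes was 65.0 ± 1.29 (SD, n = 4) in CrT-/y and 65.6 ± 0.152 (SD, n = 3) in CrT+/y animals.

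Among the 4 further cargo receptors, *Lman2* was called lower. It encodes VIP36, a lectin that binds high-mannose glycans on cargo, and lies at chr13:55343833-55362783 in GRCm38 on the minus strand. It was at 20.0, 19.4, 20.95 and 20.6 FPKM in CrT-/y animals 0 to 3, against 22.2, 23.3 and 23.0 FPKM in CrT+/y animals 1 to 3, with no overlap. The means were 20.2 ± 0.685 FPKM (SD, n = 4) and 22.8 ± 0.593 FPKM (SD, n = 3), a log2 fold change of -0.17 (standard error 0.053; adjusted p = 0.0970 with limma), and the call was kept in 3 of 13 other settings. *Lman1* and *Mcfd2*, whose products form the lectin complex ERGIC-53/MCFD2 that exports coagulation factors, had log2 fold changes of -0.03 and -0.04. *Ergic1*, a membrane protein of the intermediate compartment, was at 52.1 to 59.3 against 58.5 to 60.1 FPKM (log2 fold change -0.13; adjusted p = 0.202).

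Ratios of paralogues within an animal barely change when all values of a library are multiplied by 1 factor. Quantile normalization is not of that kind and can change them. The difference between genotypes was tested for 9 pairs with a two-sided exact permutation test over the 35 splits of the animals, whose smallest possible p is 0.0286, with Benjamini-Hochberg adjustment over the pairs. The log2 ratio of *Sec24d* to *Sec24c* was -2.52, -2.48, -2.26 and -2.39 in CrT-/y animals 0 to 3 and -3.18, -2.75 and -2.86 in CrT+/y animals 1 to 3. The ratio was higher in all 4 CrT-/y animals than in any CrT+/y animal, by 0.52 on the log2 scale between the means (exact permutation p = 0.0286, adjusted 0.129). *Sec24d* made up 8.63% ± 0.494 (SD, n = 4) of the summed FPKM of the 4 SEC24 genes in CrT-/y and 6.21% ± 1.06 (SD, n = 3) in CrT+/y animals, and that sum was 51.2 ± 0.764 against 54.7 ± 3.13 FPKM.

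The ratio of *Kdelr2* to *Kdelr1* was -1.12, -1.06, -1.14 and -1.19 in CrT-/y animals 0 to 3 and -1.38, -1.23 and -1.29 in CrT+/y animals 1 to 3. Here too the CrT-/y animals lay above the others without overlap, with a difference of 0.17 (exact permutation p = 0.0286, adjusted 0.129). Neither pair passed 0.05 after adjustment over the 9 pairs, a stricter limit than the 0.1 used for genes, which neither passed either. The limit of 0.05 could be passed here only with 6 or more pairs at the smallest p. With 2 pairs there, the adjusted value says nothing about the size of either difference. The ratio of *Sec24b* to *Sec24a* was lower by 0.11 in CrT-/y animals, with all 3 CrT+/y animals above them (exact permutation p = 0.0571, adjusted 0.171). The means of *Sec23b* to *Sec23a*, *Copg2* to *Copg1* and *Copz2* to *Copz1* differed by -0.0017, -0.011 and 0.00057 on the log2 scale, with exact permutation p of 1.00, 0.857 and 1.00. *Tmed9* to *Tmed4*, *Sar1b* to *Sar1a* and *Tmed3* to *Tmed7* differed by 0.14, 0.18 and 0.26, and none of the 3 passed (adjusted p 0.193, 0.360 and 0.471 with the same exact test).

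**Figure D4:**
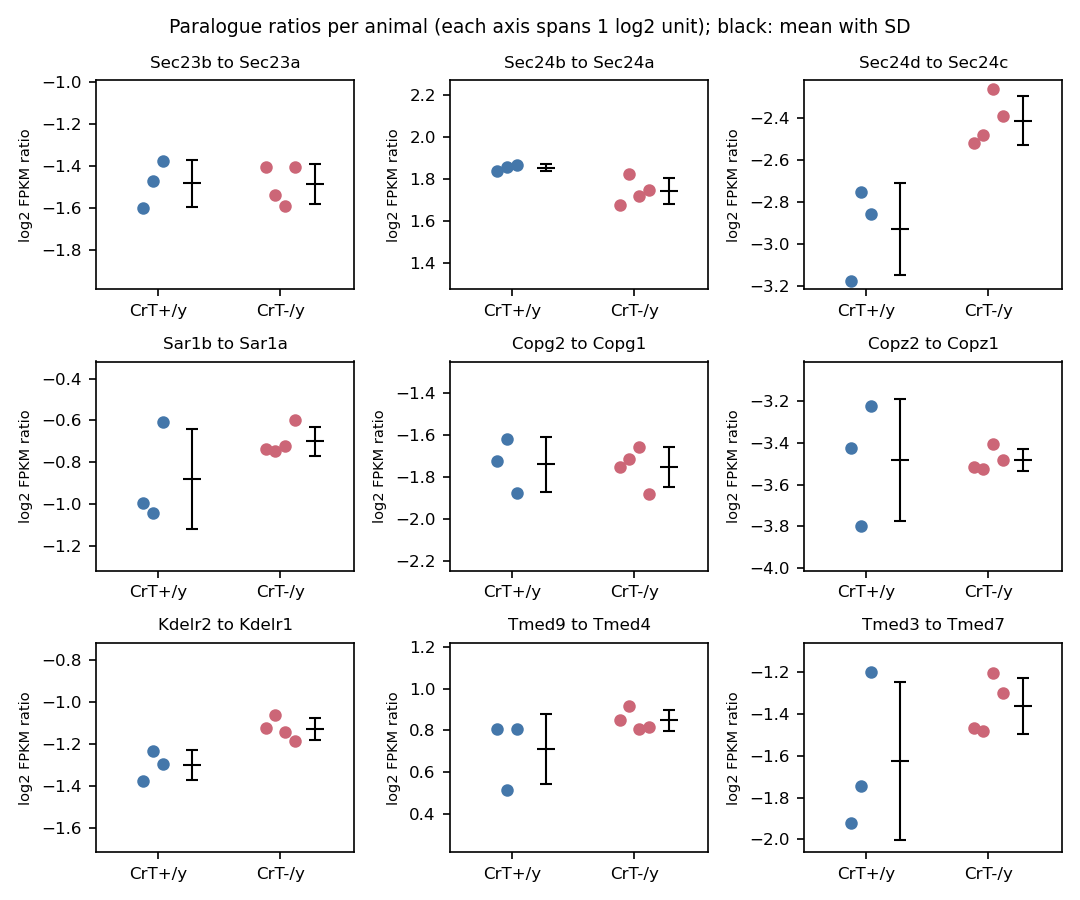
Log2 ratio of FPKM (vertical axis, each spanning 1 log2 unit) between 2 paralogues within each animal, for 9 pairs, in CrT+/y (blue) and CrT-/y animals (red), with mean and SD in black. The groups stand apart in *Sec24d* to *Sec24c*, *Kdelr2* to *Kdelr1* and *Sec24b* to *Sec24a*.

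The partners of these coats were followed in a list of 73 tethers, SNAREs, small GTPases with their regulators and other receptors of early secretory traffic, of which 66 were tested. With limma, 6 of the 66 were called lower (9.09%, beside 7.25% of all tested genes) and 1 higher (1.52%, beside 2.90%), with a median log2 fold change of -0.06. These counts moved with the animals too. Without CrT+/y animal 3, 17 were called lower (25.8%, beside 18.4% of all tested genes) and 13 higher (19.7%, beside 10.3%), without CrT-/y animal 1 none was called, and without any other single animal 1 or 2 were called lower and 0 or 1 higher. After quantile normalization 2 were called lower and 6 higher. *Gbf1*, the exchange factor that loads ARF with GTP for COPI recruitment, was at 17.0 to 18.0 FPKM in CrT-/y and 20.9 to 22.4 FPKM in CrT+/y animals (log2 fold change -0.31, standard error 0.054; adjusted p = 0.0303). *Bet1*, a SNARE of ER to Golgi vesicles, was at 8.66 to 11.5 against 14.0 to 15.7 FPKM (log2 fold change -0.54, standard error 0.1002; adjusted p = 0.0334). Both groups were separate in both genes.

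The other 4 partners called lower were *Ergic2* (log2 fold change -0.32; adjusted p = 0.0784), a receptor of the intermediate compartment, *Yipf5* (-0.22; 0.0799), a Golgi membrane protein, and the TRAPP tether subunits *Trappc11* (-0.18; 0.0832) and *Trappc8* (-0.19; 0.0928). *Trappc6a*, another TRAPP subunit, was the gene called higher, at 4.57, 6.27, 6.61 and 7.29 FPKM in CrT-/y animals 0 to 3, against 3.59, 3.76 and 4.53 FPKM in CrT+/y animals 1 to 3 (log2 fold change 0.62, standard error 0.154; adjusted p = 0.0609). The lowest CrT-/y and the highest CrT+/y animal nearly touched. Of the TRAPP subunits, *Trappc11* and *Trappc8* were thus called lower and *Trappc6a* higher, and the other listed subunits were not called. Over all tested genes 7.25% were called lower and 2.90% higher.

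The soluble ER proteins that KDEL receptors return gave other values. Of 14 genes listed for a KDEL-like tail, 8 were called lower with limma (57.1%, beside 7.25% of all tested genes) and none higher, and the median log2 fold change was -0.29. The list was drawn up when falls of several ER chaperones in these animals were already known, so its count is a description. *Calr*, the lectin chaperone calreticulin, was at 133.3, 120.0, 132.5 and 137.3 FPKM in CrT-/y animals 0 to 3, against 198.4, 183.2 and 197.3 FPKM in CrT+/y animals 1 to 3, without overlap (log2 fold change -0.56, standard error 0.063; adjusted p = 0.00665). *Hsp90b1*, the ER paralogue of HSP90, was at 88.3 to 102.8 against 133.7 to 148.6 FPKM (log2 fold change -0.55; adjusted p = 0.0103).

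Lower values also stood in *Sdf2l1* (log2 fold change -0.63; adjusted p = 0.0335), a partner of the chaperone BiP, in *Txndc12* (-0.25; 0.0556), a thioredoxin-like protein, and in *Erp44* (-0.33; 0.0939), which retains client proteins in the early secretory pathway. The remaining calls were *Hspa5* (-0.66), which encodes BiP, and the disulfide isomerases *Pdia4* (-0.60) and *Pdia6* (-0.59). The other 6 genes were not called, among them *P4hb* (log2 fold change -0.04) and *Txndc5* (0.07), both disulfide isomerases. The ligand genes included larger differences than any of the 3 receptor genes. The summed receptor level differed by less than its SD among CrT-/y animals, but by more than its SD among CrT+/y animals.

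**Figure D5:**
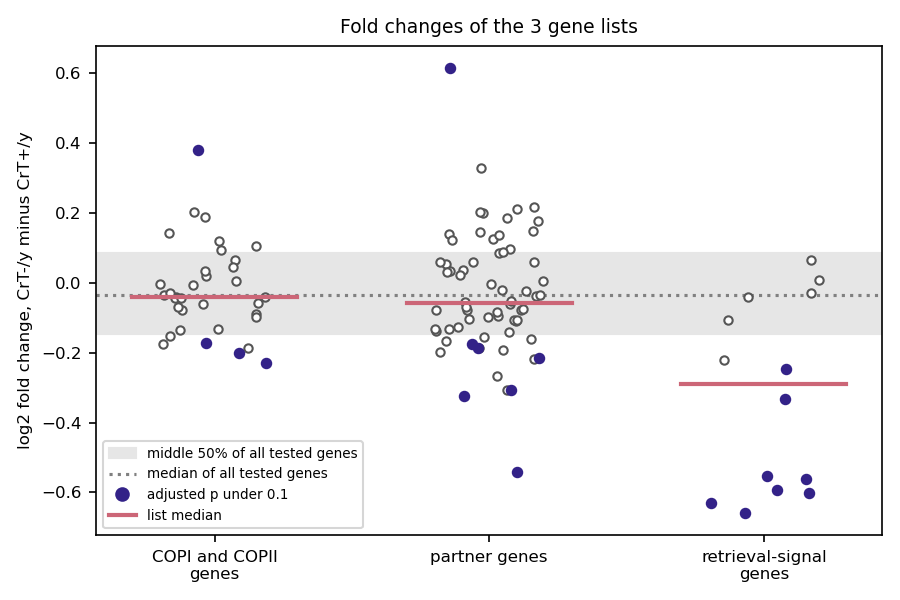
Log2 fold change (vertical axis) of each tested gene of the COPI and COPII list (34), the partner list (66) and the retrieval-signal list (14), with filled points for an adjusted p-value under 0.1, list medians in red and the middle 50% of all tested genes in grey. The medians are -0.04, -0.06 and -0.29, beside -0.03 for all tested genes.

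Promoter sequences from RefSeq (GRCm38.p6, 250 bases before to 50 after the gene start) were matched for 30 of the 35 genes. *Arcn1*, *Tmed2*, *Tmed7*, *Kdelr2* and *Lman1* had no entry. They were searched on both strands for 4 motifs bound by factors of the ER stress response and the related CREB family, because several of the chaperones above are classic targets of that response. The ER stress element, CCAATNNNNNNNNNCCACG, was in none of the 30 promoters and in 0.137% of the 27025 genes of the table. It was in 4 of the 12 retrieval-signal genes with an entry (*Hspa5*, *Hsp90b1*, *Calr* and *Pdia6*, all called lower). *Pdia4*, *Sdf2l1*, *Erp44* and *Txndc12* were called lower as well and were not among these 4. The UPR element TGACGTGG was in 5 of the 30 (*Sec23a*, *Sec24d*, *Copb1*, *Copb2* and *Kdelr3*), or 16.7%, beside 0.714% of all genes and 1.10% of tested genes. It was also in 5 of the 60 partner genes with an entry (8.33%) and in 1 of the 12 retrieval-signal genes (8.33%). The shorter CCACGT, which the reverse strand of the UPR element contains, was in 17 of the 30 (56.7%), beside 9.40% of all genes and 13.5% of tested genes. The cyclic AMP response element TGACGTCA was in 1 of the 30 (*Cope*), or 3.33%, beside 2.03% of all genes and 3.68% of tested genes. A match says that these letters occur and no more, and the shares were not tested.

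Windows upstream of the start are shown for the 3 coat and receptor genes whose UPR element lies wholly before it, as RefSeq places it, with that motif in capitals on the strand of the gene. *Sec24d* (chr3:123267440-123267482), the gene that rose, reads the motif forward, while *Copb1* (chr7:114254696-114254738) and *Kdelr3* (chr15:79516348-79516390) read it in reverse. GENCODE places the start further upstream in *Sec24d* and *Copb1*, so that 28 bases of the first window and 16 of the second, among them all 8 of the motif, lie in annotated exon. In *Kdelr3* no base of the window does.
Sec24d: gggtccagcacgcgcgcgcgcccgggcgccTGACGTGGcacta
Copb1: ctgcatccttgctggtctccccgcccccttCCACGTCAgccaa
Kdelr3: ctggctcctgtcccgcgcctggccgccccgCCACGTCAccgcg

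The 3 genes with a UPR element in the windows differed in their values. *Sec24d* was called higher, *Copb1* was at 19.7 to 20.5 against 20.1 to 23.0 FPKM (log2 fold change -0.09; adjusted p = 0.382), and *Kdelr3* was below 1 FPKM in every animal. Of the 4 tested genes with the element (*Sec24d*, *Copb1*, *Copb2* and *Sec23a*), 3 had a log2 fold change below 0, and their median was -0.046. Of the 25 tested genes without it, 15 were below 0, with a median of -0.040. Of the 16 tested genes with CCACGT, 11 had a log2 fold change below 0 and their median was -0.04, and of the 13 without it 7 were below 0, with a median of -0.01.

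For comparison, the ER stress element, with its full length in capitals, is shown in chaperone genes that were called lower, *Hsp90b1* (chr10:86705633-86705686), *Calr* (chr8:84847070-84847123) and *Pdia6* (chr12:17266461-17266514). *Hsp90b1*, whose farther match of 2 is printed, and *Pdia6* carry it forward and *Calr* in reverse.
Hsp90b1: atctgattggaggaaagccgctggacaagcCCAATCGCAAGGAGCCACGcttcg
Calr: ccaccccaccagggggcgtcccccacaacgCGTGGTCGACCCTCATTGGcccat
Pdia6: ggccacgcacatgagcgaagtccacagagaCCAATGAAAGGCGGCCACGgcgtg

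These 3 genes had log2 fold changes of -0.55, -0.56 and -0.59, below the lowest of the 34 tested coat and receptor genes (-0.23). They were picked from genes called lower, so that position follows from the choice. *Pdia4* (-0.60) and *Sdf2l1* (-0.63) were as low and were not among the genes with a match. A link between the element and the level was not tested.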

How the data were processed

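The cortical libraries were made from mRNA and sequenced in paired-end mode. Per the labels and the study's methods, the authors aligned the reads to mm10 (Bowtie and Cuffnorm are named, without versions), restricted the data to uniquely mapped exonic and junction reads (up to 2 mismatches), and deposited FPKM for each gene and animal. No gene counts were used, and FPKM do not hold the depth of a library, so no counting interval is given. Read totals that the study lists were not used here. Groups and animal numbers came from the labels.

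FPKM were put on the scale of log2(FPKM + 0.1). The 12988 genes whose mean reached 1 FPKM entered a model of genotype in limma 3.58.1 (R 4.3.3), moderated with a variance trend, and p-values were adjusted over all of them after Benjamini and Hochberg, with calls under 0.1. Standard errors and 95% intervals come from this fit. The script was tested on simulated data with independent noise and set differences larger than those of all coat and receptor genes but *Sec24d*. That test does not cover smaller differences. Gene positions and exon lengths come from GENCODE M21 (GRCm38). Of 24346 symbols, 23310 matched directly and 666 through a synonym. Ratios, shares and motif searches used Python 3.11.15.

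The genes, the partner and retrieval-signal lists and the tests were chosen with earlier results of these data known. The retrieval-signal list was made from general knowledge of ER proteins, and protein ends were not checked here. Values of each animal were given for called coat and receptor genes and for the gene with the smallest p in each role without a call. Listed partners and ligands that were called, up to 8 a list, were given by their log2 fold change. Only some of them were given with FPKM, standard error or adjusted p-value. Other settings changed the pseudocount (1, 0.01), the minimum (none, 0.1 FPKM, 5 FPKM), the scaling (quantile, upper quartile, median), the moderation (no trend, array weights) or the model (transcript length correction, replicate block), or left out each animal in turn.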

Additional observations from a re-analysis of the deposited data

Results flagged for a closer look

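In 1 of the 50 genes checked, a CrT-/y animal lay far from the other 3 of its group. *Erp44* was at 14.97 FPKM in CrT-/y animal 0 and at 13.4 to 13.6 FPKM in the others, a gap of 0.886 of the group's range, above the 95% limit for groups of 4. Chance alone places about 1 in 20 groups past this limit. With that value the CrT-/y group overlapped CrT+/y animal 3, which was at 14.5 FPKM.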

How the results depend on the processing

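The log2 fold changes of *Tmed2*, *Sec31a*, *Lman2*, *Sec24d* and *Sec13* kept their direction in every alternative that gave a value. Of the 34 coat and receptor genes, 0 were called lower and 0 higher with no filter on low values, 1 and 0 at a minimum of 0.1 FPKM, 0 and 2 after quantile normalization, upper quartile scaling or median centring alike, 1 lower with the transcript length correction, 0 lower without a variance trend, and 2 higher with a pseudocount of 1 or with array weights. *Sec24d* lay under the minimum of 5 FPKM and gave no value there. Of the partners, 2 were called lower with no filter, after quantile normalization, upper quartile scaling and median centring, and without a variance trend, 3 with the length correction and 10 at a minimum of 5 FPKM, while 0 were called higher with no filter, 6 after quantile normalization, 3 after upper quartile scaling, 2 after median centring and 4 with array weights. The animal numbers are shared by both groups in the labels. Same-numbered animals gave a Pearson's r over genes of -0.08, 0.05 and -0.05, and different-numbered animals gave -0.20 to 0.25. Same-numbered animals were not taken as pairs in the main fit. With so few animals, these values cannot show whether they shared a litter or batch. With a replicate block, 0 coat and receptor genes were called lower and 0 higher and 2 partners lower, and with the block and the length correction 0, 0 and 1. The median of the 34 genes moved to 0.0056 after quantile normalization, 0.0092 after upper quartile scaling, -0.0031 after median centring and -0.023 with array weights.

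Only genes near 0 that were never called changed sign. After quantile normalization these were *Sec23a* (0.053), *Sec23b* (0.033), *Copz1* (0.0081), *Tmed10* (0.023), *Lman1* (0.0031) and *Mcfd2* (0.022). After upper quartile scaling they were *Sec23a* (0.046), *Sec23b* (0.045), *Sec24a* (0.0084), *Copz1* (0.0071), *Copz2* (0.0063), *Tmed10* (0.016), *Lman1* (0.022) and *Mcfd2* (0.010). Median centring turned *Sec23a* (0.034), *Sec23b* (0.032), *Tmed10* (0.0034) and *Lman1* (0.0094), and array weights turned *Sec23a* (0.0070), *Sec23b* (0.015) and *Copz2* (0.050). The length correction turned *Sec23a* (0.044), *Sec23b* (0.022), *Sec24a* (0.023), *Lman1* (0.025) and the ratio of *Copz2* to *Copz1* (-0.051). The replicate block turned *Sec23a* (0.0040) and *Preb* (-0.0040), and with the length correction *Sec23a* (0.055), *Sec23b* (0.0075), *Sec24a* (0.014) and *Lman1* (0.055). Median centring adds the same amount to the log2 fold change of every gene, and the median over all tested genes moved from -0.033 to 0.0036 with it. Upper quartile scaling multiplies each library by 1 factor, which shifts all genes nearly alike. For the other settings the cause was not tested.

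Leaving out 1 animal at a time, 0 to 7 coat and receptor genes were called lower and 0 to 6 higher, 0 to 17 partners lower and 0 to 13 higher, and 5 to 8 retrieval-signal genes lower (5 without CrT-/y animal 1). The upper ends for coats, receptors and partners came without CrT+/y animal 3, where 18.4% of all tested genes were called lower and 10.3% higher. The median of the 34 genes was -0.045 to -0.0041. Log2 fold changes that changed sign ranged from -0.017 to 0.014 for *Sec23a*, -0.068 to 0.065 for *Sec23b*, -0.150 to 0.040 for *Sec24a*, -0.0053 to 0.041 for *Preb*, -0.078 to 0.016 for *Copz1*, -0.22 to 0.15 for *Copz2*, -0.094 to 0.10 for *Tmed4*, -0.115 to 0.021 for *Lman1* and -0.095 to 0.035 for *Mcfd2*. Ratios that changed sign ranged from -0.062 to 0.051 for *Sec23b* to *Sec23a*, -0.080 to 0.051 for *Copg2* to *Copg1* and -0.16 to 0.13 for *Copz2* to *Copz1*. With 7 animals and log2 fold changes mostly under 0.2, a missed threshold does not show that a gene was equal in both groups.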
